A study of Mus musculus with 32 samples.

Results

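The transcripts described here are 59 well captured long noncoding RNAs of the mouse whose symbol is Gm followed by a number. They were chosen from 1897 Gm long noncoding RNAs, among 17784 transcripts in all, as those with at least 300 significant contacts with DNA summed over the mESC_1FA libraries or over the mOPC_1FA libraries. Of the 59, 37 reached this minimum in mESC_1FA and 34 in mOPC_1FA. It was reached in both cell types by 12, in mESC_1FA alone by 25 and in mOPC_1FA alone by 22. Just inside the minimum were Gm14093 (303 contacts), Gm14164 (311) and Gm7967 (315), and just outside it were Gm28177 (298), Gm12610 (296) and Gm5091 (293). Because these counts chose the transcripts, their levels in the 1FA libraries are given as a description and without a test.

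Long noncoding RNAs do not encode protein, and many remain on the chromatin where they are made. Some act on genes near their own site of transcription, some by the act of being transcribed, and a few, such as Xist, spread along a chromosome. A Gm symbol is a provisional name for a predicted gene model that has not yet been given a functional name. Such models can be independent genes, transcripts that run opposite to the promoter of a neighbour, antisense transcripts, pieces of an intron, or long transcripts that read through several genes.

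The contacts were measured by RADICL-seq, in which RNA is ligated to nearby DNA in fixed nuclei through a bridge adapter, so that every contact gives an RNA tag and a DNA tag. R08 mouse embryonic stem cells (mESC) and Oli-neu cells (mOPC), an immortalised mouse line of oligodendrocyte progenitor cells, were used. The groups were mESC_1FA (1% formaldehyde, 3 libraries), mESC_2FA (2% formaldehyde, 3 libraries), mESC_ActD4 (1% formaldehyde after 5 µg per ml of the transcription inhibitor actinomycin D for 4 h, 2 libraries), mESC_NPM (2 libraries), mOPC_1FA (1% formaldehyde, 3 libraries) and mOPC_NPM (2 libraries). NPM stands for contacts not mediated by protein: cells were fixed with 1% formaldehyde, but proteins were digested and crosslinks reversed before RNA was ligated. Each cell type is represented by a single line, and replicates were batches of cells at different passage numbers. The p-values thus measure the spread of listed contacts between such batches.

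Replicates had been pooled by the authors to call which transcripts contacted which 25-kb bins of DNA significantly, and the files list the interactions behind those calls. The replicates of a group thus share their calls, so the spread that the p-values use may be smaller than that between independent batches. An unlisted transcript may still have been captured, and "listed at 0" means only this. A library held 1998951 to 2832717 distinct interactions in the 1FA and 2FA groups, 1190366 and 1272653 in mOPC_NPM, 434610 and 608994 in mESC_NPM, and 251802 and 418781 in mESC_ActD4. The 15 stem cell markers summed to 3956 to 4319 CPM (interactions per 1000000 listed) in mESC_1FA and to 49.8 to 61.0 in mOPC_1FA, where 12 of them were listed at 0. The 13 progenitor markers summed to 18140 to 20100 CPM in mOPC_1FA, where Nkx2-2 and Sox8 were listed at 0, and to 28.9 to 59.0 in mESC_1FA. In such bulk samples, fewer cells with a transcript and less RNA per cell cannot be told apart.

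The RNA positions captured most often are shown for 6 Gm RNAs, because they separate a transcript whose tags pile up on few bases from transcripts captured along their length. Each line gives 30 bases of GRCm38 (mm10) 5′ to 3′ on the strand of the RNA, read from the reference genome, and the capital marks the most frequent RNA tag position.
Gm26917, chr17:39844103-39844132, + strand: tgcggagccatgtgGctccggttgtgtggt
Gm43313, chr5:32467410-32467439, + strand: tgaactggatacttCtttattcctgagcag
Gm10863, chr15:79184093-79184122, + strand: tcagaaagaacattCtagacagaggaacag
Gm4258, chr1:137904487-137904516, + strand: ctggaaaatcctatAgaggctttatagcag
Gm4876, chr6:17137994-17138023, - strand: cacctctcctagctGtcagtgtgagcagag
Gm28373, chr12:102704652-102704681, - strand: ctggttaccctcggCgggcgcggggcagac

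The marked base of Gm26917 held 197 of its 1188 RNA tags in the 1FA libraries (16.6%), and all 6 libraries contained it. In Gm43313 it held 78 of 713 tags (10.9%). The next highest shares at a single position were 5.34% in Gm37298, 4.27% in Gm43312 and 3.40% in Gm44699. Over the 59 RNAs the median was 1.31%. Gm4258 (1.69%) lay just above it and Gm10863 (1.14%), Gm28373 (0.485%) and Gm4876 (0.341%) below it, so the tags of these 4 came from many positions along the transcript.

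Most tags were intronic. At least 90% of the tags lay in introns in 44 of the 59 RNAs, while 5 had exonic tags only, namely Gm26917, Gm43312, Gm43313, Gm37298 and Gm20342. The widest stretches of tags were 514736 bp in Gm26561, 349893 bp in Gm26904, 317905 bp in Gm26551, 210235 bp in Gm26668 and 192119 bp in Gm21989, although only 0.101% of the tags of Gm21989 lay inside its GENCODE M21 span of 22519 bp and its host overlap was not computed. The RNAs came from 17 chromosomes, with the largest numbers on chromosomes 1 (7), 5 (7) and 17 (6).

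A host gene on the same strand was common. By the position of most tags, 22 of the 59 RNAs were classed inside a protein-coding gene of the same strand and 4 inside another noncoding gene of the same strand. A further 9 were classed antisense to a protein-coding gene and the other 24 apart from protein-coding genes. The classes describe tags, so an RNA classed inside a host can be longer than it, as Gm26551 (319633 bp) is than Ube2b (15266 bp). Where a Gm RNA overlapped such a host and at least 50 tags fell in the overlap, the authors' annotation gave a median of 93.9% of these tags to the Gm RNA in mESC_1FA (16 overlaps) and 98.4% in mOPC_1FA (23 overlaps). The lowest shares belonged to Gm48286 inside Mark3, a kinase gene (71.0% in mESC_1FA and 63.6% in mOPC_1FA). Hence the count of such a Gm RNA is close to the count of all tags of that strand over that stretch. A pre-mRNA of the host and a separate Gm transcript cannot be told apart from these tags.

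Where the host had tags outside the overlap, the density of tags was mostly near that of the host. Gm10530 lies inside Tnr, which encodes the matrix protein tenascin-R of oligodendrocytes, and in mOPC_1FA it gave 62.0 tags per kb against 63.3 per kb for Tnr outside the overlap. Gm28373 in Itpk1, an inositol phosphate kinase gene, gave 88.8 against 76.7 tags per kb in mESC_1FA, and Gm48591 in Rassf3 gave 17.2 against 17.4. Gm43312 and Gm43313 in Ppp1cb, a catalytic subunit of protein phosphatase 1, gave 319.5 and 310.1 against 265.5 and 264.4 tags per kb in mOPC_1FA. Of the overlaps whose host had tags outside, 9 of 12 in mESC_1FA and 12 of 17 in mOPC_1FA had a density within 2-fold of the host, and the median ratio was 1.08 and 1.43.

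Some hosts departed from this. Gm15941 in Ncald, the gene of the calcium sensor neurocalcin delta, was denser than its host in mOPC_1FA (96.3 against 37.1 tags per kb). Gm20342 in the noncoding Ino80dos had the highest ratio in mESC_1FA, 7.13. Gm48286 in Mark3 had the lowest ratio in both cell types, with 17.5 against 35.8 tags per kb in mESC_1FA and 7.51 against 22.6 in mOPC_1FA. Gm26668, Gm26561 and Gm26551 contain the whole of their hosts Nmt1, Lpin2 and Ube2b, so no part of the host remained for comparison.

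**Figure D1:**
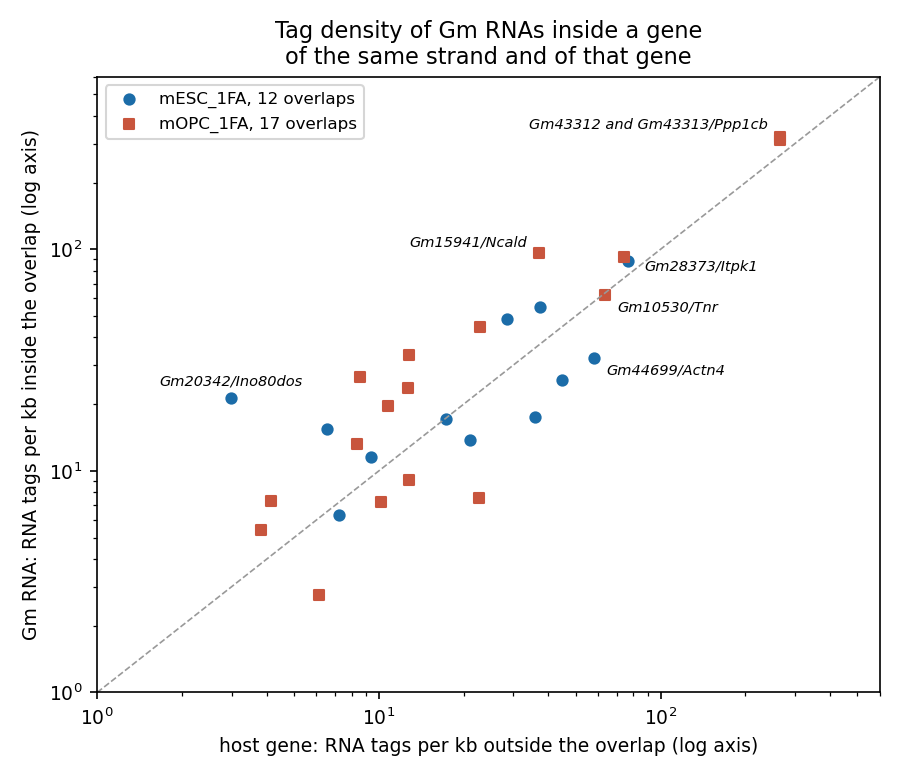
Tag density of each Gm RNA inside a gene of the same strand (vertical axis, RNA tags per kb in the overlap) against that of the gene outside the overlap (horizontal axis, RNA tags per kb), both on log axes, for overlaps with at least 50 tags. Circles are overlaps in mESC_1FA and squares in mOPC_1FA, summed over 3 libraries, and the dashed line marks equal density, near which Gm10530 in Tnr (62.0 against 63.3) lies.

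The best captured RNAs of the progenitors differed from those of the stem cells. Gm10863, which starts 801 bp from the start of Sox10 on the other strand, led in mOPC_1FA. Sox10 encodes a transcription factor of the oligodendrocyte lineage. Gm10863 had 2865, 3101 and 2162 interactions in the mOPC_1FA libraries and 24, 40 and 26 in mESC_1FA. Sox10 had 313, 275 and 483 in mOPC_1FA and 0, 4 and 4 in mESC_1FA. Both were higher in every mOPC_1FA library than in any mESC_1FA library.

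Gm4258 and Gm4876 were classed apart from protein-coding genes by the position of most tags. However, 28.95% of the tags of Gm4876 lay in a protein-coding gene on the opposite strand. Gm4258 on chromosome 1 had 2619, 2353 and 2306 interactions in mOPC_1FA, and Gm4876 on chromosome 6 had 2282, 2300 and 2452. Both were listed at 0 in all 10 mESC libraries. The nearest coding starts were those of Ptprc, 277113 bp from the start of Gm4258, and of Tes, 106684 bp from the start of Gm4876. Neither gene was listed in mOPC_1FA. Gm37298, inside Gm4258, had 151, 115 and 90 interactions in mOPC_1FA and was also listed at 0 in mESC.

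Hosts and their Gm RNAs were captured in the same cell type in most cases. Gm10530 had 1338, 1250 and 1758 interactions in mOPC_1FA and none listed in mESC_1FA, and its host Tnr had 6792, 6812 and 7775 against 1, 10 and 5. Gm15941 had 425, 377 and 380 in mOPC_1FA and none listed in mESC_1FA, and Ncald had 5163, 5166 and 5050 against 65, 47 and 63. In the opposite direction, Gm28373 had 1051, 907 and 948 in mESC_1FA and 64, 70 and 56 in mOPC_1FA. Its host Itpk1 had 2688, 2673 and 2849 against 130, 139 and 138. None of these groups overlapped. In CPM, 19 of the 22 RNAs inside a protein-coding gene were higher in the same cell type as the host. These are the counts that chose the RNAs, so this is a description. The pairs are also not all independent, as Gm43312 and Gm43313 share the host Ppp1cb.

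Among the other leading RNAs of mOPC_1FA, Gm43809 overlaps most of Mrpl33, a mitochondrial ribosomal protein gene, and had 1962, 2028 and 2010 interactions, against 211, 157 and 165 in mESC_1FA. Gm38399, nearest to Csrp1, had 893, 856 and 803 against 247, 232 and 228. Gm20687, whose tags lay in the noncoding Zfhx2os, had 636, 594 and 429 against 1, 7 and 9. All 3 were higher in each mOPC_1FA library than in any mESC_1FA library. Zfhx2, a homeobox gene that Gm20687 overlaps on the opposite strand, ran the other way with 19, 15 and 15 interactions in mOPC_1FA and 594, 631 and 661 in mESC_1FA.

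In mESC_1FA the leading RNAs after Gm28373 were mostly captured in both cell types. Gm28039 over Zfp644, a zinc finger gene, had 813, 722 and 912 interactions in mESC_1FA and 505, 523 and 357 in mOPC_1FA. Gm45846 over Tnrc6a, a microRNA silencing factor, had 815, 746 and 859 against 867, 835 and 763, and these unscaled counts overlapped. Gm28052 had 697, 587 and 615 against 349, 362 and 338. Gm26668 over Nmt1, a myristoyltransferase gene, had 385, 385 and 411 against 203, 216 and 150. After scaling by TMM, a factor from the bulk of transcripts, the log2 difference between mOPC_1FA and mESC_1FA was -0.01 for Gm28052, 0.01 for Gm28039, -0.23 for Gm26668 and 0.87 for Gm45846. These values depend on the scaling. In CPM, Gm28052 had 217.1 to 261.2 in mESC_1FA and 157.9 to 171.7 in mOPC_1FA. Gm28039 had 295.7 to 322 against 178.6 to 248.1. Gm26668 had 144.3 to 157.7 against 75.04 to 102.5, and Gm45846 had 303.2 to 305.5 against 381.7 to 396.2. None of these groups overlapped in CPM. The share of all transcripts without overlap between mESC_1FA and mOPC_1FA is not given, so nothing more is read from such statements.

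Gm26542 and Gm2694 were captured mainly in stem cells. Gm26542, antisense to Maml1, a Notch coactivator gene, had 382, 325 and 345 interactions in mESC_1FA and 8, 2 and 0 in mOPC_1FA. Gm2694 on chromosome 8, next to Cbln1, had 308, 326 and 375 against 3, 2 and 7. The groups did not overlap. In all, 11 of the 59 RNAs were listed at 0 in every mOPC_1FA library and 8 in every mESC_1FA library, a direction that the choice of members favours.

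**Figure D2:**
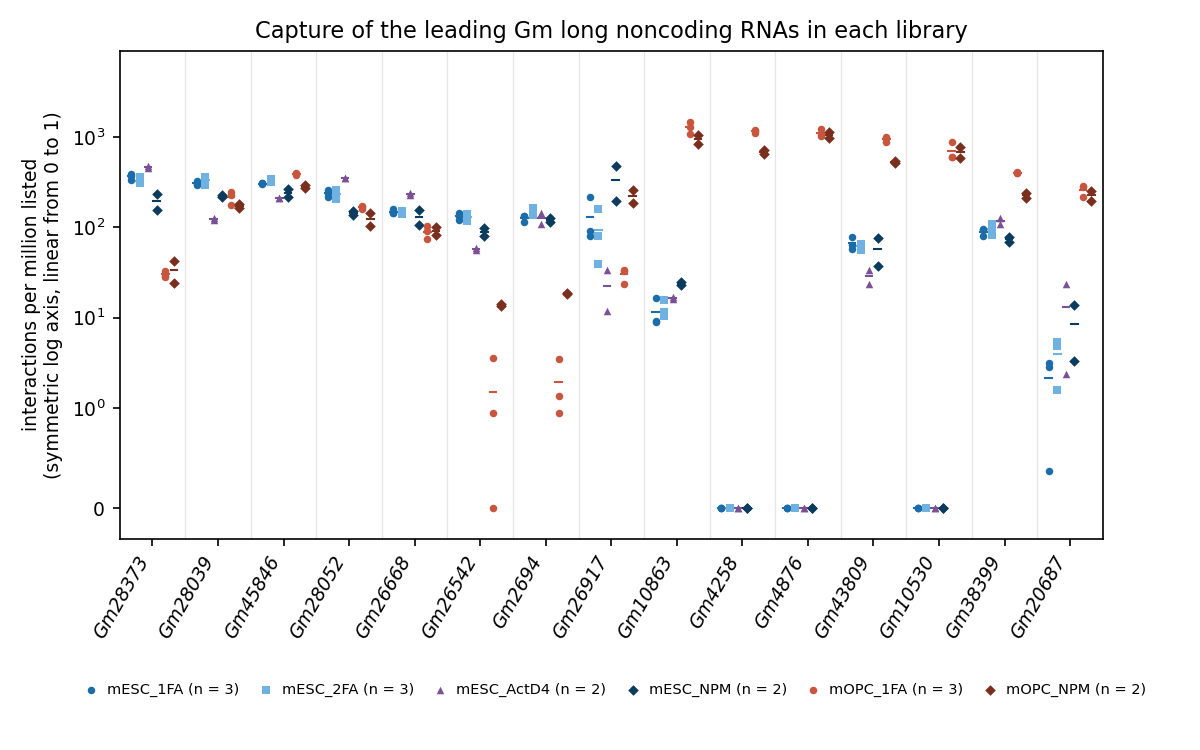
CPM (interactions per 1000000 listed, vertical axis, logarithmic above 1 and linear from 0 to 1) of the 8 Gm RNAs captured most in mESC_1FA and the 8 captured most in mOPC_1FA, 1 of them shared. Each symbol is a library and each short line a group mean, and Gm4258, Gm4876 and Gm10530 are listed at 0 in all mESC libraries.

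Starts close to that of a coding gene on the other strand were found for 15 of the 59 RNAs within 5 kb, and for 13 of the 33 RNAs that did not lie inside another gene. Besides Gm10863 with Sox10 these were, among others, Gm2164 at 362 bp from Pou3f1, a POU-domain factor of glia, Gm20033 at 729 bp from Klf3, a Krüppel-like factor, Gm15850 at 206 bp from Kif21b, a kinesin, and Gm10069 at 80 bp from Fkbp4, an immunophilin. The neighbours did not always share the cell type. Gm20033 had 248, 233 and 330 interactions in mOPC_1FA and 8, 11 and 10 in mESC_1FA, whereas Klf3 had 95, 91 and 216 against 1345, 994 and 1205. Gm2164 had 338, 318 and 314 against 60, 43 and 42. Pou3f1 was listed at 0 in mOPC_1FA and had only 1, 5 and 2 interactions in mESC_1FA, too few to compare.

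Gm15850 shared the cell type of its neighbour. It had 194, 189 and 355 interactions in mOPC_1FA and was listed at 0 in mESC_1FA, and Kif21b had 502, 427 and 460 against 35, 38 and 41. Gm16201, which is no such pair, lies 6607 bp from the start of Utf1 on the same strand, a chromatin-bound factor of stem cells. It had 76, 164 and 131 interactions in mESC_1FA and none listed in mOPC_1FA. Utf1 was listed at 0 in mOPC_1FA and had only 5, 3 and 2 in mESC_1FA, too few to compare. Over RNAs apart from protein-coding genes, 14 of 20 were higher in CPM in the same cell type as the nearest gene, and over antisense RNAs 6 of 8.

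The NPM libraries were not used to choose the RNAs, and they test the cell type difference in other libraries of the same lines. Of the 59 RNAs, 41 were called by limma at an adjusted p under 0.05, against 50.3% of all 10980 transcripts tested. They were higher in mOPC_NPM in 25 cases (27.2% of all transcripts) and lower in 16 (23.1% of all). Among the 22 RNAs that reached the minimum only in mOPC_1FA, 21 were higher in mOPC_NPM and none was lower. Among the 25 that reached it only in mESC_1FA, 16 were lower and none was higher. The choice by 1FA level favours these directions. Some RNAs also passed the filter on low counts only through the group where they were high, which favours the same directions. Gm15351 (6 and 5 interactions in mOPC_NPM) and Gm16201 (3 and 5) are such cases. The counts by direction are therefore a description. The counts include 12 RNAs called higher and 6 called lower that were listed at 0 in the other group, where the call follows from the listing of significant contacts only. The median log2 difference was 0.28 over the 59 and 0.09 over all transcripts, and 0.17 and 0.02 without those listed at 0 in a group, 18 of them Gm RNAs. With scaling by the library total in place of TMM, a scaling factor from the bulk of transcripts, the medians were -0.12 and -0.31.

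Gm10863 had 1071 and 1240 interactions in mOPC_NPM and 10 and 15 in mESC_NPM, a log2 difference of 5.66 ± 0.19 (SE) with an adjusted p of 9.51e-06 in limma. Gm4876 (1444 and 1146 in mOPC_NPM), Gm4258 (908 and 768) and Gm10530 (976 and 697) were listed at 0 in both mESC_NPM libraries. No fold or p is given for them, because unlisted contacts have no known limit.

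Among RNAs higher in stem cells, Gm40040 had 62 and 49 interactions in mESC_NPM and was listed at 0 in mOPC_NPM. Gm2694 had 55 and 70 in mESC_NPM and 24 and 22 in mOPC_NPM, a difference of -2.25 ± 0.22 (adjusted p = 0.000881). Gm28373 had 67 and 144 against 31 and 51, a difference of -2.14 ± 0.39 (adjusted p = 0.00858), and its counts did not overlap between the groups. Without mOPC_NPM replicate 1 the number of RNAs called was 26, all of them among the 41, and without tags that also lay in another gene it was 27, likewise among the 41.

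Host and Gm RNA were also compared in these libraries. In 18 of 21 pairs of a Gm RNA and its protein-coding host the difference between mOPC_NPM and mESC_NPM had the same sign, and both were called in 12 pairs, 11 of them with the same sign. For RNAs apart from protein-coding genes and their nearest gene, the sign was shared in 11 of 15 pairs.

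Some RNAs lay in regions where most transcripts differed between the lines. Gm43809, Gm43312, Gm43313 and Gm42936 lie in the first 45 Mb of chromosome 5, where 202 other transcripts had a median log2 difference of 2.09 between mOPC_1FA and mESC_1FA and 233 had one of 2.14 between the NPM groups. Gm15351, Gm2694 and Gm45894 lie on chromosome 8, where the medians were -1.38 over 562 and -0.89 over 595 transcripts. The medians over all transcripts were -0.20 and 0.08. For these 7 RNAs a difference of the region between the lines and one of the RNA itself cannot be told apart.

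The distance between the RNA tag and the DNA tag was taken next, over listed contacts only. Contacts of a distance class with none listed may still occur. Pooled over the 59 RNAs, 22.1% ± 3.23 (SD, n = 3) of interactions lay within 10 kb in mESC_1FA and 16.5% ± 1.91 in mOPC_1FA. Protein-coding RNAs gave 15.5% ± 1.47 and 17.4% ± 2.29. Contacts in cis beyond 1 Mb made up 2.34% ± 0.14 in mESC_1FA and 15.7% ± 0.53 in mOPC_1FA, with 11.5% and 16.2% for protein-coding RNAs. Without tags shared with another gene these shares of the Gm RNAs were 0.585% and 18.1%. With all tags their medians per RNA were 0 and 0.85%. In mESC_1FA the Gm RNAs thus had more short and fewer long contacts than coding RNAs in every library. This was not particular to them. Long noncoding RNAs with a Rik symbol gave means of 26.38% within 10 kb and 4.78% beyond 1 Mb in mESC_1FA. The Gm long noncoding RNAs below the minimum gave 50.2% and 0.0289%. The remaining long noncoding RNAs went the other way, with 6.366% and 13.09%. In mOPC_1FA these classes in turn gave 35.66%, 0.357% and 6.575% beyond 1 Mb. In every mOPC_1FA library the Gm RNAs had slightly lower shares than coding RNAs in both classes (17.8%, 14.3% and 17.4% against 19.4%, 14.9% and 18.02% within 10 kb, and 15.1%, 15.9% and 16.1% against 15.3%, 16.9% and 16.5% beyond 1 Mb). The difference in short contacts thus had the opposite sign in the 2 cell types, with no test of it. The Gm RNAs held 0.36% ± 0.01 of all interactions in mESC_1FA and 0.92% ± 0.02 in mOPC_1FA, and 0.164% and 0.557% without tags shared with another gene.

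Long contacts were rarer among the RNAs of stem cells. Among those at the minimum in mESC_1FA, 26 of 37 had none beyond 1 Mb, and the highest share was 7.71% in Gm28373. In mOPC_1FA 10 of 34 had none, the median was 1.67% and the highest shares were 30.6% in Gm4876, 30.2% in Gm4258, 27.4% in Gm43809 and 23.6% in Gm10530. Gm4876 reached 252 bins, the most of any, and Gm10530 had the farthest contact at 121.4 Mb. The median cis distance was highest in Gm43809 in mOPC_1FA (424.7 kb) and in Gm30228 in mESC_1FA (240.2 kb). Gm4258, Gm4876, Gm43809 and Gm10530 were also 4 of the 5 best captured RNAs of mOPC_1FA, and the part of the count in the shares was not tested.

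Gm43809 had 27.4% ± 1.12 of its contacts beyond 1 Mb in mOPC_1FA (6000 interactions) and none in mESC_1FA (533 interactions). Gm10863 had 14.2% ± 1.58 in mOPC_1FA (8128) and none in mESC_1FA (90), and 34.6% ± 5.57 against 82.9% ± 7.78 of its contacts with its own gene. The libraries did not overlap in these shares, but an exact permutation test of 3 libraries against 3 cannot go below p = 0.1, so no share compared between the cell types could pass.

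DNA outside the own gene lay in a host or overlapping gene for some RNAs and outside any gene for others. The leading other gene of Gm10530 was Tnr (26.6% of its mOPC_1FA contacts), for Gm28373 Itpk1 (21.9% in mESC_1FA), for Gm15941 Ncald (38.2% in mOPC_1FA) and for Gm43809 Bre (30.4% in mESC_1FA and 15.1% in mOPC_1FA), which encodes a subunit of the BRCA1-A complex. For Gm10863 the leading other gene was Pick1 with 3.75%, while 20.2% of its mOPC_1FA contacts lay outside any gene. Contacts outside any gene made up 43.5% for Gm4258 and 31.4% for Gm4876 in mOPC_1FA, and 38.3% for Gm28039 and 63.7% for Gm40040 in mESC_1FA. The leading other gene of these 4 held 3.01%, 7.86%, 4.82% and 7.34%. Contacts with the own gene ranged from 6.92% in Gm40040 to 82.1% in Gm26561 in mESC_1FA, and from 4.76% in Gm43313 to 94.9% in Gm26904 in mOPC_1FA.

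**Figure D3:**
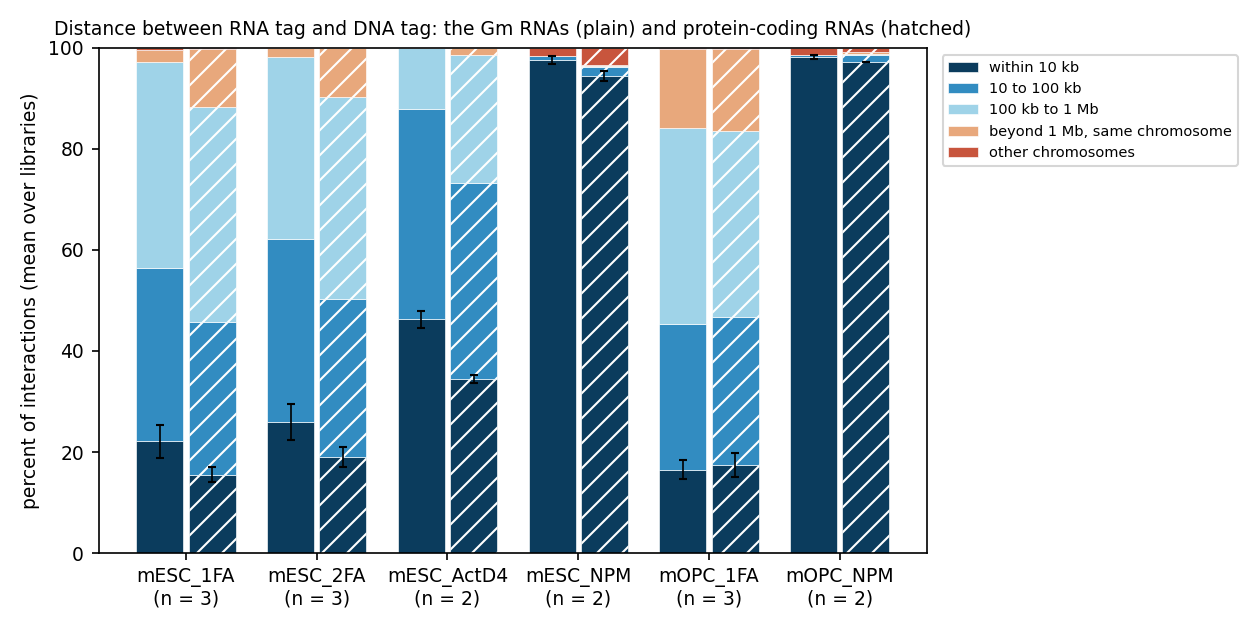
Percent of interactions by distance between the RNA tag and the DNA tag (vertical axis), as means over the libraries of each group (horizontal axis), for the 59 Gm RNAs pooled (plain bars) and protein-coding RNAs (hatched bars). Error bars are the SD of the share within 10 kb, which for the Gm RNAs rose from 22.1% in mESC_1FA to 97.7% in mESC_NPM.

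Listed contacts with other chromosomes came from few RNAs. The authors reported that their filter on significance removed many trans contacts, so an RNA with none listed may still have them. In mESC_1FA 36 of the 37 RNAs at the minimum had none listed. Gm26917 had 31, 58 and 38 trans interactions, which was 14.5%, 11.1% and 14.6% of its total. In mOPC_1FA Gm26917 had none and 31 of 34 RNAs had none, and those listed belonged to Gm10863 (53, or 0.652% of its interactions), Gm4876 (27) and Gm4258 (9). The 127 trans interactions of Gm26917 in mESC_1FA fell in 9 bins on 6 chromosomes. Gm26917 lies on chromosome 17 and ends 12 bases before Rn18s-rs5, which RefSeq describes as a pseudogene related to 18S ribosomal RNA. Since ribosomal sequence is repeated in the genome, tags of this RNA and of near-identical copies cannot be told apart with certainty.

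The counts of Gm26917 varied between replicates. It had 214, 525 and 260 interactions in mESC_1FA, 87, 326 and 200 in mESC_2FA, 84 and 293 in mESC_NPM, 14 and 3 in mESC_ActD4, 52, 70 and 67 in mOPC_1FA, and 236 and 306 in mOPC_NPM. In CPM it ranged from 80.2 to 215 in mESC_1FA and from 23.5 to 33.5 in mOPC_1FA, and these groups did not overlap. The NPM groups, which the rule did not use, did overlap (193.3 and 481.1 in mESC_NPM, 185.4 and 257.1 in mOPC_NPM).

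After actinomycin D many of the RNAs were lower relative to the library. Since the mESC_1FA counts chose the RNAs, the change was tested against mESC_2FA, whose libraries the rule did not use. However, its formaldehyde was 2% and its replicate numbers paired with mESC_1FA. The choice by mESC_1FA level can therefore still favour a fall. Of 45 RNAs that passed the filter on low counts, 29 were called by limma at an adjusted p under 0.05 (60.7% of all 10163 transcripts), 24 lower (39.3% of all) and 5 higher (21.4% of all). The 24 include 6 RNAs listed at 0 in mESC_ActD4, which passed the filter only through mESC_2FA and whose fitted changes are no bound. Of the 8 tested RNAs that reached the minimum only in mOPC_1FA, 4 were called, all lower and all listed at 0 in mESC_ActD4. Without these 4 the median log2 change of that set was 0.20. The median log2 change was -0.78 against -0.28 over all transcripts, and -0.56 against 0.0044 without transcripts listed at 0. With scaling by the library total 22 were lower and 6 higher, and the medians were -0.63 and -0.13. The mESC_ActD4 libraries were the smallest, and the part of library size in the calls was not tested. Against mESC_1FA, as a description, 25 of 44 RNAs were lower (40.3% of all transcripts) and 4 higher (21.7%) of 29 called (62.0%), with a median of -1.11. Such a share of falls (56.8%) was not particular to them. It was 68.0% for Gm long noncoding RNAs below the minimum, 56.5% for those with a Rik symbol and 58.2% for the remaining long noncoding RNAs. Without transcripts listed at 0, the medians of these classes in turn were 0.64, 0.22 and -0.36, against -0.62 for the Gm RNAs described here.

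Gm15351, antisense to the exchange factor gene Mcf2l, fell most among the RNAs listed in both groups. It had 152, 83 and 102 interactions in mESC_2FA and 5 and 2 in mESC_ActD4, a change of -2.42 ± 0.33 (SE, adjusted p = 0.000485 in limma). Gm26917 went from 87, 326 and 200 to 14 and 3, a change of -2.12 ± 0.62 (adjusted p = 0.0193). Gm30228 (74, 84 and 130 in mESC_2FA), Gm14164 (86, 60 and 93) and Gm20342 (46, 49 and 76) were listed at 0 in both mESC_ActD4 libraries, for which no p is given. Gm28039 had 808, 596 and 850 in mESC_2FA and 50 and 32 in mESC_ActD4, a change of -1.57 ± 0.13 (adjusted p = 2.54e-05). Gm45846 changed by -0.78 ± 0.11 (89 and 53 interactions in mESC_ActD4, adjusted p = 0.000503), but by 0.67 without tags shared with another gene. Such tags made up 84.6% of its 1FA tags.

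The 5 RNAs that rose did so relative to the other transcripts, and their counts were lower in the smaller mESC_ActD4 libraries. Gm26904 had 211, 144 and 176 interactions in mESC_2FA and 98 and 56 in mESC_ActD4, a change of 1.4 ± 0.17 after scaling (adjusted p = 0.000258 in limma). Gm26694 changed by 0.95 ± 0.17 (adjusted p = 0.00219), Gm26668 by 0.53 ± 0.12 (adjusted p = 0.0066) and Gm28052 by 0.45 ± 0.13 (adjusted p = 0.0201). The change of Gm28052 turned to -0.82 without tags shared with another gene, which made up 96.6% of its 1FA tags. Gm28373, the best captured in stem cells, had 808, 629 and 773 interactions in mESC_2FA and 200 and 113 after actinomycin D, a change of 0.36 ± 0.11 (adjusted p = 0.0264), against 0.16 ± 0.10 from mESC_1FA. The sign of the change from mESC_1FA was shared by the Gm RNA and its protein-coding host in 6 of 13 pairs.

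Contacts were also closer after actinomycin D. The share within 10 kb was 46.3% ± 1.67 (SD, n = 2) against 22.1% ± 3.23 in mESC_1FA, and the share with the own gene was 68.1% ± 1.57 against 34.6% ± 2.55. Beyond 1 Mb none were listed. The own-gene share of Gm28039 was 87.3% ± 4.69 against 34.7% ± 2.35, and that of Gm2694 was 82.5% ± 9.05 against 20.4% ± 2.63. An exact permutation test of 2 libraries against 3 cannot go below p = 0.2, so none of these differences could pass. Protein-coding RNAs moved the same way, from 15.5% to 34.5% within 10 kb.

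In mESC_NPM many of these RNAs were lower relative to other transcripts. Against mESC_2FA, for the reason given above, 24 of 46 RNAs were called by limma (46.8% of all 11298 transcripts), 21 lower (25.7% of all) and 3 higher (21.1% of all), with a median log2 change of -0.63 against 0.03 over all. With scaling by the library total instead of TMM, 11 were lower and 10 higher and the medians were -0.05 and 0.63, so the direction of the calls is relative to the other transcripts. Of the 9 tested RNAs that reached the minimum only in mOPC_1FA, 1 was called higher. It was Gm15802, which passed the filter on low counts only through mESC_NPM, so nothing is read from its direction. Against mESC_1FA, as a description, 23 of 47 were lower (28.4% of all transcripts) and 2 higher (24.8%) of 25 called (53.2%), and 10 lower and 8 higher with scaling by the library total. The medians were -0.70 against 0.03 over all.

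Gm11613, which starts 3047 bp from Mllt6, a chromatin factor gene, had 144, 150 and 130 interactions in mESC_2FA and 10 and 26 in mESC_NPM, a change of -1.59 ± 0.30 (adjusted p = 0.00145 in limma). Gm14164, near the pseudokinase gene Trib3, changed by -1.5 ± 0.28 (9 and 10 interactions in mESC_NPM, adjusted p = 0.00134), and Gm28373 by -1.37 ± 0.21 (67 and 144, adjusted p = 0.000369). Of the 1FA tags of Gm12940, 46.8% lay in a protein-coding gene of the same strand. Its nearest coding start was that of Sfpq, a splicing factor gene of paraspeckles. Gm12940 was higher with 58 and 89 interactions against 110, 108 and 133, a change of 0.82 ± 0.18 (adjusted p = 0.0041). For Gm12940 the sign turned when tags shared with another gene were left out (-0.90). The fall of Gm28373 from mESC_1FA also turned without them (0.15), but 98.2% of its 1FA tags were shared in this way. Gm26917 was also called higher (1.33 ± 0.50, adjusted p = 0.0468), with 84 and 293 interactions against 87, 326 and 200. Against mESC_1FA, which had the same 1% formaldehyde as mESC_NPM, Gm26917 changed by 0.72 and was not called. The other RNA called higher was Gm15802, which had 16 and 9 interactions against 8 in each mESC_2FA library, a change of 2.02 ± 0.46. It passed the filter on low counts only through mESC_NPM, which favours a rise, so no p is given and nothing is read from it.

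For mOPC_NPM the only control was mOPC_1FA, whose counts chose the RNAs, so the changes are a description and no p is given. An adjusted p under 0.05 was found for 30 of 49 RNAs (55.9% of all 11586 transcripts), 24 lower (24.1% of all) and 6 higher (31.8% of all). These were 15, 14 of them lower, without mOPC_NPM replicate 1. The direction moved with the group that had chosen the RNA: 23 of the 34 RNAs at the minimum in mOPC_1FA were in this number and were all lower, and of 7 in this number that had reached it only in mESC_1FA, 6 were higher. The median was -0.57 against 0.32 over all, and 0.24 against 1.12 with scaling by the library total, where 8 were lower and 17 higher.

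Gm43313 in Ppp1cb had 274, 248 and 171 interactions in mOPC_1FA and 39 and 35 in mOPC_NPM, a log2 difference of -2.64 ± 0.21 (SE). Gm43312 in the same gene had 289, 264 and 235 against 56 and 69, a difference of -2.10 ± 0.17. Ppp1cb itself had 5787, 5590 and 3523 against 944 and 914. Gm43809 differed by -1.66 ± 0.11 (683 and 616 interactions in mOPC_NPM). Gm26917 had 52, 70 and 67 interactions in mOPC_1FA, a level at which the rule had not chosen it, and 236 and 306 in mOPC_NPM, a difference of 2.06 ± 0.24. Over all pairs inside a protein-coding gene, the sign of the change from 1FA was shared with the host in 12 of 21 in mOPC and in 11 of 17 in mESC.

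**Figure D4:**
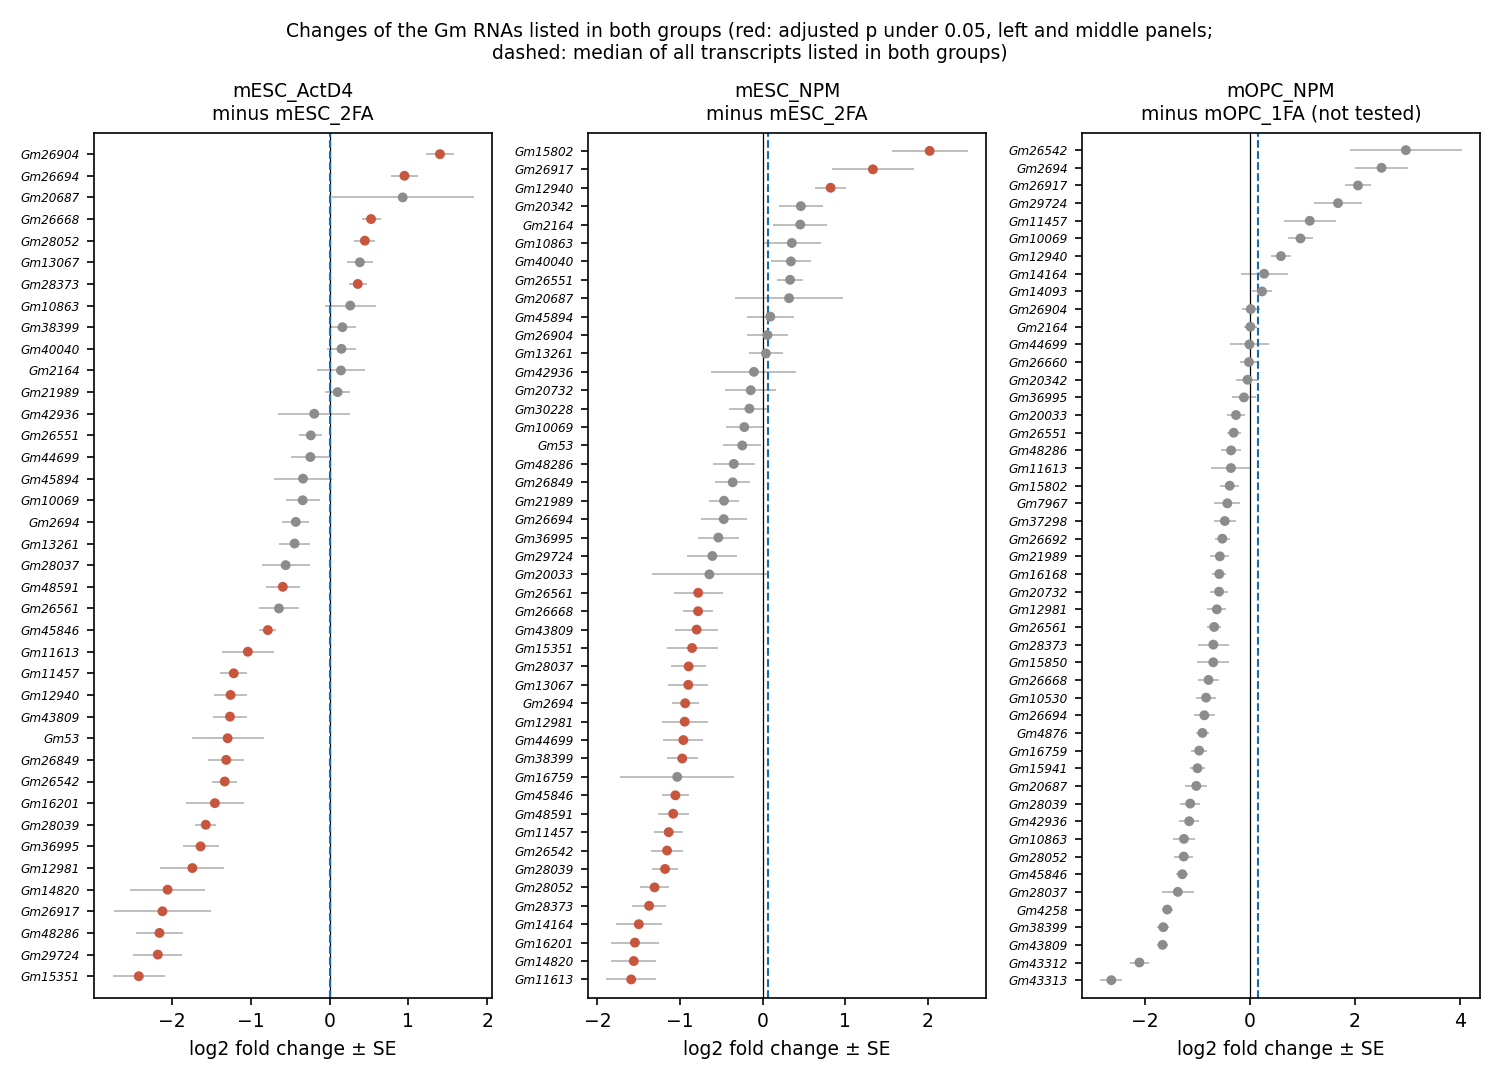
Log2 fold change with its SE (horizontal axis, limma) of each Gm RNA listed in both groups (vertical axis). The panels show mESC_ActD4 and mESC_NPM minus mESC_2FA, where red points had an adjusted p under 0.05, and mOPC_NPM minus mOPC_1FA. The last is a description whose calls are not marked, which its panel title words as not tested. The dashed line is the median of all transcripts listed in both groups, and most points lie left of it, with Gm15351 lowest after actinomycin D (-2.42) and Gm43313 lowest in mOPC_NPM (-2.64).

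In the NPM libraries nearly all listed contacts were local. The listing holds significant contacts only, and in the authors' counts before that filter most NPM contacts were trans. The share within 10 kb was 97.7% ± 0.81 (SD, n = 2) in mESC_NPM and 98.2% ± 0.46 in mOPC_NPM, and no contact beyond 1 Mb in cis was listed for any of the 59 RNAs. Protein-coding RNAs gave 94.4% and 97.2% within 10 kb. Gm4258 had 30.3% ± 1.60 of its contacts beyond 1 Mb in mOPC_1FA and none in mOPC_NPM, where 96.1% ± 0.96 were with its own gene. Trans contacts made up 1.63% ± 0.77 of the pooled interactions in mESC_NPM and 1.45% ± 0.24 in mOPC_NPM, against 0.44% ± 0.16 and 0.15% ± 0.01 in the 1FA groups. For Gm10863 the trans share was 3.24% ± 0.09 in mOPC_NPM and 0.66% ± 0.11 in mOPC_1FA. With 2 libraries against 3, an exact permutation test of these shares cannot go below p = 0.2.

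With 2% instead of 1% formaldehyde none of 44 RNAs was called by limma (4 at an unadjusted p under 0.05), while 3 of 9837 transcripts were called in all (0.0305%, with 0.0203% higher and 0.0102% lower). Replicate numbers paired these libraries, and with the replicate as a block 3 RNAs had an adjusted p under 0.05, all lower in mESC_2FA, against 5.13% of all transcripts. They were Gm45894 (-0.82 ± 0.17), Gm26917 (-0.60 ± 0.13) and Gm53 in the Hoxb cluster (-0.44 ± 0.12), named here after their values were seen. Their mESC_1FA counts chose them, which favours a fall, and the share is close to the background, so nothing is read from it. Gm28373 had fewer contacts beyond 1 Mb in mESC_2FA (2.42% ± 0.30) than in mESC_1FA (7.73% ± 0.56) (exact permutation test, two-sided, p = 0.1, the smallest that 3 against 3 allows, and 0.25 adjusted over 10 shares).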

How the data were processed

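The authors extracted RNA and DNA tags, removed ribosomal RNA and duplicates, aligned to mm10 with BWA 0.7.15-r1140 (the submitters' processing notes also name CASAVA 1.8), kept mapping quality 37 and assigned RNA by strand to GENCODE M14. Contacts were kept where the transcript met a 25-kb bin at a binomial adjusted p under 0.05. The deposited files hold 1 line of 32 columns per interaction, with tag positions and annotation as the unit (other than counts), and their 2 p-value columns were not used.

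Here distinct interactions were counted per transcript and library, so 32 samples gave 15 libraries. Symbols came from GENCODE M21 (99.8% of Ensembl identifiers matched). The members and lists were chosen with earlier results of these data known. Counts were filtered (count minimum 10, total 15), scaled by TMM, converted to log2 CPM (prior count 0.5) and fitted with limma 3.58.1 (R 4.3.3, intensity trend, two-sided), with Benjamini-Hochberg adjustment over all transcripts tested. Log2 differences are on this scale. Alternatives were scaling by total, voom weights, a prior count of 2, no low-count filter, a replicate block, a joint fit of all libraries, all lines of the files, no shared tags, mESC_2FA as control (also with 3 of the other settings, added later) and leaving out each library. The planned comparisons of mESC_ActD4 and of both NPM groups were with 1FA. Because the 1FA counts chose the members, these are given as a description, and limma p-values of single RNAs only against mESC_2FA or between the NPM groups. Shares were compared by exact permutation tests (scipy 1.17.1). On simulated counts, a change of 2 (log2) put into 200 transcripts was found in 74.5% for mESC_ActD4 minus mESC_1FA, and 94% to 99.5% in the other 5 fits. Unchanged transcripts made up 11.2% of the calls for mESC_NPM minus mESC_1FA, 12.1% for mOPC_NPM minus mOPC_1FA and 3.40% to 7.01% in the other fits.

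Named were the 8 RNAs captured most in each cell type, the 3 called RNAs with the largest rise and fall per test with a mean of at least 50 interactions, those next to the minimum, the extremes of tag position, tag width and trans share, and those at 0 in the other cell type, with their neighbours. A few others were named after their values were seen, among them Gm15351, Gm20033, Gm2164 and Gm16201. Deviations of equally numbered mESC_1FA and mESC_2FA libraries from their group means correlated at 0.355, 0.186 and 0.323, and differently numbered ones at -0.283 to -0.00135, so these numbers pair the libraries.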

Additional observations from a re-analysis of the deposited data

Results flagged for a closer look

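The effect of protein removal was set side by side in both cell types, as the interaction of NPM with cell type in limma. The 1FA levels that chose the RNAs are part of this contrast, and a high 1FA level in a cell type moves its NPM effect down, so the values are a description and nothing is read from a p. An adjusted p under 0.05 was found for 24 of the 59 RNAs and 35.7% of all 13593 transcripts.

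Of the 19 RNAs that were listed in all 4 groups and were either among the 8 captured most in a cell type or named for a change, 6 had an adjusted p under 0.05, and only these are given. The NPM effect in mOPC minus that in mESC was -2.60 for Gm43312 (SE 0.70), -1.81 for Gm10863 (SE 0.38) and -0.83 for Gm38399 (SE 0.18). The first pair had reached the minimum in mOPC_1FA alone and Gm38399 in both cell types. It was 1.82 for Gm14164 (SE 0.57), 3.15 for Gm2694 (SE 0.52) and 4.15 for Gm26542 (SE 1.30), which had reached the minimum in mESC_1FA alone. For all but Gm38399 the direction is the one that the choice by 1FA level favours.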

How the results depend on the processing

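Counts of called RNAs were within 1.5 times of those reported under most alternatives. For mESC_NPM minus mESC_1FA, 16 were called without tags shared with another gene. For mOPC_NPM minus mESC_NPM, 27 were called so. Leaving out 1 library at a time gave 21 to 34 calls for mESC_ActD4 minus mESC_1FA, 21 to 32 for mESC_NPM minus mESC_1FA, 15 to 29 for mOPC_NPM minus mOPC_1FA (15 without mOPC_NPM replicate 1, 22 without mOPC_NPM replicate 2), 26 to 39 for mOPC_NPM minus mESC_NPM (26 without mOPC_NPM replicate 1) and 0 to 0 for mESC_2FA minus mESC_1FA. With mESC_2FA as the control, settings chosen after seeing the data gave 21 to 30 calls for mESC_ActD4 and 17 to 24 for mESC_NPM when 1 library was left out, and 23 and 17 without shared tags. Where a single library remained, it was assumed to vary like the other group. For mESC_2FA minus mESC_1FA, 1 RNA was called without the low-count filter and 3 with the replicate block. The replicate block gave 27, 23, 37 and 44 calls for mESC_ActD4, mESC_NPM and mOPC_NPM against 1FA and for mOPC_NPM minus mESC_NPM, where equal numbers correlated at -0.136 to 0.142 only.

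The share of all interactions held by the RNAs, in the order mESC_1FA, mESC_2FA, mESC_ActD4, mESC_NPM, mOPC_1FA and mOPC_NPM, was 0.164%, 0.164%, 0.118%, 0.184%, 0.557% and 0.494% without shared tags, 0.327%, 0.329%, 0.264%, 0.344%, 0.792% and 0.725% without the most captured RNA, and 0.438%, 0.448%, 0.45%, 0.545%, 1.08% and 1.19% over all lines. The median per RNA was 0.00467%, 0.00458%, 0.00187%, 0.00439%, 0.00542% and 0.00659%. Without Gm26917 it was 0.332% in mESC_NPM and 0.80% in mOPC_NPM.

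The trans share without shared tags was 0.976% (mESC_1FA), 0.276% (mESC_2FA), 0.253% (mOPC_1FA) and 2.04% (mOPC_NPM). It was 0 without Gm26917 in mESC_1FA and mESC_2FA, 0 as the median per RNA in these, in both NPM groups and in mOPC_1FA, 0.072% without the most captured RNA in mOPC_1FA, and 1.03% over all lines in mOPC_NPM. The own-gene share over all lines was 27.1%, 30.2%, 43.4%, 57.3%, 24.5% and 60.5% in the order above. Its median per RNA was 30.9% (mESC_1FA), 70.2% (mESC_ActD4), 100% (mESC_NPM) and 99.8% (mOPC_NPM). In mESC_ActD4 it was 78.3% without shared tags and 74.4% without the most captured RNA, and in mESC_NPM 97.6% without Gm26917. The share beyond 1 Mb in mESC_1FA, mESC_2FA and mOPC_1FA was 0.585%, 0.302% and 18.1% without shared tags, 1.90%, 1.41% and 13.3% over all lines, and 0, 0 and 0.85% as the median per RNA. It was 1.75% without the most captured RNA in mESC_1FA.

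The sign turned without shared tags for Gm45846 (0.99) and Gm28052 (-1.13) after actinomycin D, for Gm12940 (-0.61), Gm28373 (0.15) and Gm45846 (0.44) in mESC_NPM, and for Gm12940 (-0.84) and Gm26668 (0.61) in mOPC_NPM, where Gm26668 also turned with scaling by the total (0.0214). With mESC_2FA as the control and without shared tags it turned for Gm45846 (0.67 after actinomycin D, 0.15 in mESC_NPM), Gm28052 (-0.82) and Gm12940 (-0.90). Shared tags made up 98.2% of the 1FA tags of Gm28373, 96.6% for Gm28052, 85.8% for Gm26668, 84.6% for Gm45846 and 46.8% for Gm12940. Most of these values without shared tags thus rest on a small part of the tags. The cause was not tested. Of the other values of single RNAs, 1091 kept their side of the threshold, 69 no longer passed and 27 passed newly. The 1091 include any whose sign changed while neither value passed. The libraries of mESC_ActD4 and mESC_NPM were the smallest, and the part of depth in their values was not tested.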
